A study of Oryza sativa with 45 samples.

Results

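The change of the IR64 transcriptome between 8 and 14 d underwater was measured by RNA-seq in 6 libraries, 3 from each day, out of the 45 libraries of the series. The 6 were taken by their labels of genotype and day. IR64 is an indica rice variety that carries neither the AG1 nor the SUB1 introgression, so it lacks TPP7, the trehalose-6-phosphate phosphatase gene of AG1, and carries the SUB1A-2 allele rather than SUB1A-1 at the SUB1A locus. The near-isogenic lines IR64(SUB1), IR64(AG1) and the double line IR64(AG1,SUB1) were sampled on the same days and serve here only for comparison, with 3 libraries per group except for IR64(SUB1) at 8 d, which has 2. All 4 lines share the IR64 background and the same treatment. Dry seeds were sown in soil in pots that were kept submerged in aquaria under ambient light and lifted out only for harvest and measurement. None of the libraries is labelled as grown in air, so each later day is both a longer submergence and an older seedling. Each library pooled embryo, coleoptile and shoot tissue of many seedlings, and the labels call the tissue of both days coleoptile. Libraries came from triplicate biological experiments.

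A rice seed that germinates underwater first extends a hollow coleoptile on seed starch and on ethanolic fermentation, in which pyruvate decarboxylase and alcohol dehydrogenase regenerate NAD+ without oxygen. When leaves leave the coleoptile and reach light, chloroplasts are built: chlorophyll a/b-binding proteins gather light, the photosystems carry electrons, and the Calvin cycle fixes carbon. Rubisco also takes up oxygen, and the product is recovered by photorespiration through chloroplast, peroxisome and mitochondrion, where glycolate oxidase releases hydrogen peroxide that catalase removes.

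Total counts were 20112846 to 21641091 per library at 8 d and 22782598 to 24583898 at 14 d, and levels are CPM, counts scaled to a common library size after trimmed mean of M-values (TMM) correction. Correlations of log2 CPM across genes were 0.957 to 0.974 within 8 d, 0.979 to 0.984 within 14 d and 0.842 to 0.899 between the days. On an axis that runs from 0 at the mean of the other 3 lines at 8 d to 1 at their mean at 14 d, the IR64 libraries stood at -0.25, -0.10 and -0.15 at 8 d and at 1.01, 1.05 and 0.98 at 14 d. The other lines covered -0.16 to 0.17 at 8 d and 0.83 to 1.08 at 14 d. Libraries of both days stood apart in many genes. At 8 d, replicate 1 held the lowest of the 3 levels in 2256 and replicate 2 the highest in 2358 of the 4460 genes that later rose, with replicate 2 above 2 times both others in 430 of them. At 14 d, replicate 2 held the lowest in 1358 of the 2864 genes that fell, being under 1/2 of both other libraries in 405 of them against 82 and 87 for replicates 1 and 3.

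**Figure D1:**
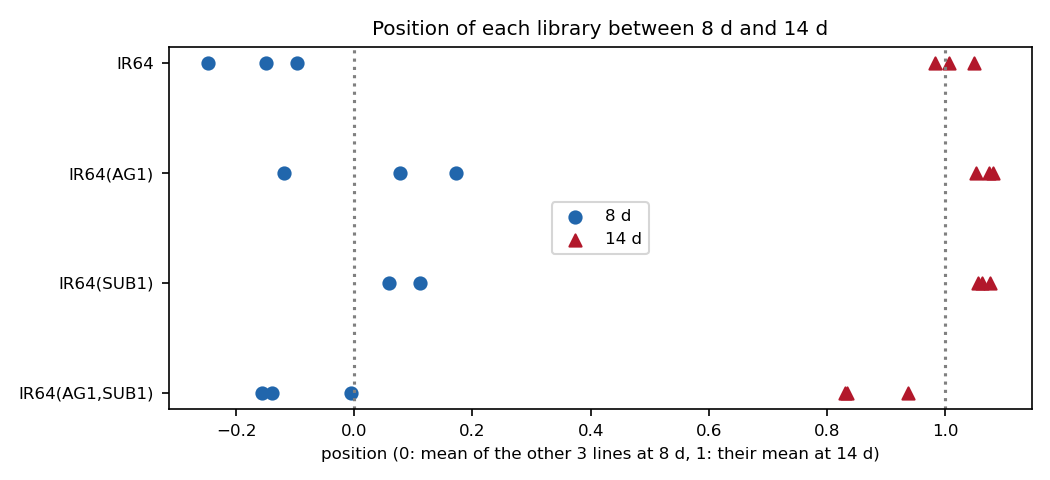
Position of each library (points) on an axis that is 0 at the mean of the other 3 lines at 8 d and 1 at their mean at 14 d, by line. The IR64 libraries sit at -0.25 to -0.10 at 8 d and at 0.98 to 1.05 at 14 d, with no library between the days.

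Of 26180 genes tested, 7324 (28%) were called in the edgeR quasi-likelihood test, at a false discovery rate (FDR) under 0.05 and a log2 change beyond 1 or -1. Of these, 4460 (17%) rose and 2864 (10.9%) fell, and the median over all genes was 0.00. The 3 levels of 14 d lay outside the range of the 3 of 8 d in 4404 of the called rises (16.8% of the genes tested) and in 2655 of the called falls (10.1%). Large rises outnumbered large falls. A change of at least 16-fold was found in 596 genes that rose and 311 that fell, and one of at least 64-fold in 216 and 40. Of the called rises, 208 had no count in any 8 d library, and 105 of the called falls had none at 14 d, so their fitted folds are no measure of size. Genes that rose took 5.91%, 8.24% and 6.80% of all CPM in the 3 libraries of 8 d and 28.8%, 26.9% and 27.01% at 14 d. Genes that fell went from 25.1%, 21.9% and 21.3% to 6.05%, 5.27% and 6.02%. In pooled tissue, fewer cells of a type and less RNA per cell cannot be told apart.

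Descriptions pair with 3800 of the 35677 genes in the count table. They come from an unbroken stretch of 1941 genes on chromosome 1 and from 1859 genes that the study tabulated because they differed between genotypes in these samples. In the stretch, 239 of 1407 tested genes rose (17.0%) and 152 fell (10.8%). In the tabulated genes, 616 of 1830 rose (33.7%) and 434 fell (23.7%). Most gene groups below draw on the second source, so their counts are no independent evidence of direction.

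The largest rises were taken among described genes with at least 10 CPM at 14 d and no overlap between the days. They included acyltransferase, acid phosphatase, jasmonate synthesis and triterpene genes. OS02G0589000, a lecithin:cholesterol acyltransferase family gene, had 0, 0.0882 and 0 CPM at 8 d and 32.6, 29.5 and 41.6 CPM at 14 d. Its neighbour OS02G0589700 of the same family had 0, 0.265 and 0 CPM and then 34.3, 24.99 and 43.7 CPM. Both went from the limit of detection to a level far outside the 8 d range. With only 2 counts at 8 d, the ratio for OS02G0589000 is 1199, with an exact counting interval of 332 to 9903.

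OS03G0225900, allene oxide synthase, which makes the precursor of jasmonate, went from 0.0925, 0.265 and 0.368 CPM to 65.6, 64.9 and 60.1 CPM. Its log2 fold change was 7.97 ± 0.39 (standard error from the fit of all 45 libraries, n = 3 per day, edgeR FDR 2.6e-14). The acid phosphatase gene OS05G0190300 had 0.231, 0.971 and 0.450 CPM at 8 d and 411, 366 and 440 CPM at 14 d (log2 fold change 9.503 ± 0.87, and 10.17 without replicate 2 of 8 d). Of the genes next to it, OS05G0190500 had 0.832, 13.9 and 5.57 CPM at 8 d and 443, 345 and 402 CPM at 14 d, and OS05G0189900 had 0, 0 and 0.164 CPM and then 47.2, 49.0 and 26.9 CPM. None of the 3 overlapped between the days. The choice required this of OS05G0190300 and OS05G0189900, and OS05G0190500 was chosen after its values were seen. Similar neighbouring copies may share reads, so the split of counts among them is uncertain. OS11G0562100, with a squalene cyclase domain of the triterpene-forming enzymes, went from 0, 0.176 and 0 CPM to 41.1, 26.2 and 43.5 CPM.

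The largest falls, also chosen without overlap between the days, included a salt-stress gene, a glycine-rich protein and an ethylene response factor. The salt-stress-induced protein gene OS01G0348800 had 255, 95.9 and 68.4 CPM at 8 d and 0.124, 0 and 0.0725 CPM at 14 d, with 3, 0 and 2 counts at the later day. The glycine-rich protein gene OS02G0587000 had 2499, 944 and 573 CPM at 8 d and 21.6, 1.76 and 23.5 CPM at 14 d, a log2 fold change of -6.42 ± 0.64 (edgeR FDR 9.9e-11). Replicate 1 was the highest of the 3 at 8 d in both genes, and replicate 2 the lowest at 14 d. The RAP2.2-like AP2 factor OS02G0546600, of the ethylene response factor family that includes regulators of the low-oxygen response in Arabidopsis, had 66.2 CPM in replicate 1 of 8 d against 8.03 and 7.41 CPM in the others, and 1.24, 0.0382 and 0.399 CPM at 14 d. Its 8 d mean rests mainly on 1 library. That its days do not overlap was a condition of its choice. Without that library its log2 fold change went from -5.62 to -3.85. For OS02G0587000 it was -5.65 without the same library.

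A cluster of early nodulin genes on chromosome 6, chosen after their values were seen, fell together. OS06G0142200 had 1904, 1641 and 2039 CPM at 8 d and 88.3, 17.4 and 103.6 CPM at 14 d, a log2 fold change of -4.74 ± 0.42. The other 4, which include the ENOD93 gene OS06G0141600, had log2 fold changes of -4.48 to -4.87. They are similar neighbouring copies, for which the counting could split or share reads. In each of the 5, replicate 2 was the lowest 14 d library.

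**Figure D2:**
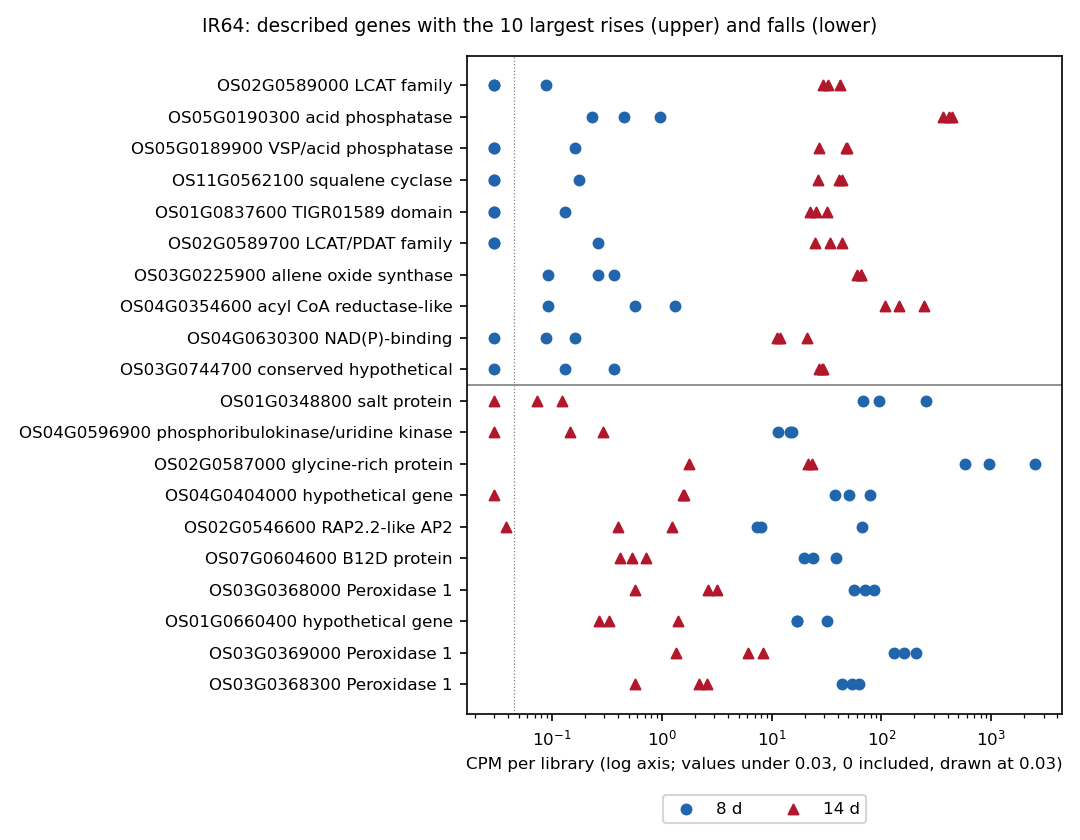
CPM in each library (circles 8 d, triangles 14 d, log axis, values under 0.03 drawn at 0.03) of the described genes with the 10 largest rises and 10 largest falls. The days do not overlap in any of the 20, a condition of the choice. In 3 of the falls, OS01G0348800, OS04G0596900 and OS04G0404000, a 14 d library had no count.

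Most photosynthesis genes of the lists rose. Of 5 genes in the light-harvesting antenna list, 4 rose and 0 fell (median log2 fold change 1.79, against 0.00 over all genes). Of 10 photosystem genes, 8 rose (median 2.03). OS05G0560000, described as photosystem I reaction center subunit VI, is counted in both of these lists and rose by 2.08. Of 4 genes in the Calvin cycle list, 3 rose and 1 fell (median 3.40), and the one that fell, OS04G0596900, is described as phosphoribulokinase/uridine kinase family, a domain that enzymes outside the Calvin cycle also hold. All 5 genes of the antenna list, all 4 of the Calvin cycle list and 9 of the 10 photosystem genes were tabulated by the study. Of the tabulated genes, 33.7% rose and 23.7% fell.

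Antenna levels were uneven among the 14 d libraries. The chlorophyll a/b-binding protein 2 gene OS01G0600900 had 530, 1069 and 440 CPM at 8 d and 3641, 2167 and 1257 CPM at 14 d (log2 fold change 1.79 ± 0.36). The type I antenna gene OS01G0720500, which the study names as CAB, had 374, 954 and 339 CPM and then 1596, 904 and 577 CPM. Its days overlapped and its log2 fold change of 0.88 ± 0.36 was under the limit of 1, although its edgeR FDR was 0.040. In both genes replicate 2 was highest at 8 d and replicate 1 at 14 d. Summed over the 4 leaf marker genes found, which are all antenna genes, the level was 932 to 2306 CPM at 8 d and 2560 to 6762 CPM at 14 d. No described gene for the Rubisco small subunit or Rubisco activase was found in the table.

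The photosystem II oxygen-evolving protein gene OS01G0501800 had 347, 699 and 375 CPM at 8 d and 2647, 1795 and 1513 CPM at 14 d. PsbS, the 22-kDa protein of photosystem II that dissipates excess light, had 34.2, 58.1 and 33.0 CPM and then 229, 184 and 167 CPM for OS01G0869800 (log2 fold change 2.21 ± 0.23). Its second copy OS04G0690800 had a log2 fold change of 0.99 ± 0.26, just short of the fold limit. Among 3 genes of chlorophyll synthesis, OS03G0323200, the H subunit of magnesium chelatase, was the 1 called, at 1.06 ± 0.30. It was not called with the 6 libraries alone, without replicate 1 or 3 of 8 d, or without replicate 1 of 14 d, where the value was lowest at 0.66. GUN4 (OS11G0267000), which stimulates that enzyme, had 25.7, 55.2 and 33.4 CPM and then 86.3, 60.6 and 71.5 CPM, with a log2 fold change of 0.93 ± 0.22. The cyclase subunit OS01G0279100 had 0.39 ± 0.28 with overlapping days.

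CP12 (OS01G0303000), a small protein that holds Calvin cycle enzymes inactive in the dark in other plants, had 36.2, 71.5 and 37.7 CPM at 8 d and 694, 612 and 612 CPM at 14 d, a log2 fold change of 3.72 ± 0.26, and was chosen after its values were seen. Sedoheptulose-1,7-bisphosphatase (OS04G0234600) had 23.6, 66.8 and 24.1 CPM and then 419, 327 and 334 CPM (3.24 ± 0.27). For phosphoribulokinase (OS02G0698000) and chloroplast fructose-1,6-bisphosphatase (OS03G0267300) the log2 fold changes were 3.63 ± 0.35 and 3.57 ± 0.30. Without replicate 2 of 8 d, the last 3 genes had 3.91, 4.45 and 4.24. In all 4 genes replicate 2 was the highest 8 d library, and every 14 d level was over 4 times the highest 8 d level.

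Of 8 photorespiration genes, 5 rose and 0 fell (median log2 fold change 2.85), and 7 of the 8 are tabulated genes, of which 33.7% rose and 23.7% fell. GLO1 (OS03G0786100), a glycolate oxidase, had 4.02, 10.7 and 6.18 CPM at 8 d and 147, 122 and 157 CPM at 14 d (4.35 ± 0.28, edgeR FDR 1.3e-15). A further glycolate oxidase, OS07G0152900, had 9.02, 13.3 and 8.68 CPM and then 71.6, 73.8 and 77.3 CPM. The third, GLO3 (OS04G0623500), had 23.2, 17.6 and 23.7 CPM and then 12.2, 11.96 and 11.4 CPM, a log2 fold change of -0.86 ± 0.18 that was not called for its size.

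Peroxisomal hydroxypyruvate reductase (OS02G0101500), which acts later in the same pathway, went from 10.8, 25.9 and 18.3 CPM to 312, 329 and 364 CPM (4.19 ± 0.25). The cytosolic enzyme for the same reaction, OS01G0228600, had a log2 fold change of 0.67 ± 0.14 and was not called. The aminotransferase OS08G0502700 of the same list rose by 4.10 ± 0.21, and the mitochondrial aminomethyltransferase OS04G0623800 of glycine cleavage by 2.86 ± 0.15. Chloroplast glutamine synthetase (OS04G0659100), which refixes the ammonium released in photorespiration, had 65.3, 147 and 89.3 CPM at 8 d and 904, 765 and 974 CPM at 14 d (3.13 ± 0.21). It was the one called member of 9 nitrogen assimilation genes, of which the other 8, for nitrate and ammonium transport and reduction, had log2 fold changes of -0.87 to 1.16.

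Antioxidant genes changed in both directions. Catalase A (OS02G0115700), a peroxisomal enzyme, had 8.28, 33.1 and 29.8 CPM at 8 d and 1354, 1359 and 1580 CPM at 14 d, a log2 fold change of 5.91 ± 0.43 (edgeR FDR 3.2e-14). The thylakoid ascorbate peroxidase OS02G0553200 had 19.1, 40.1 and 27.4 CPM and then 325, 267 and 280 CPM (3.33 ± 0.23). Against these, the manganese superoxide dismutase OS05G0323900, of the mitochondrial type, had 828, 814 and 600 CPM and then 216, 199 and 200 CPM, and fell by 1.87 on the log2 scale. Of the 6 genes in the list, 3 rose and 1 fell, and 4 of the 6 are tabulated genes, of which 33.7% rose and 23.7% fell.

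**Figure D3:**
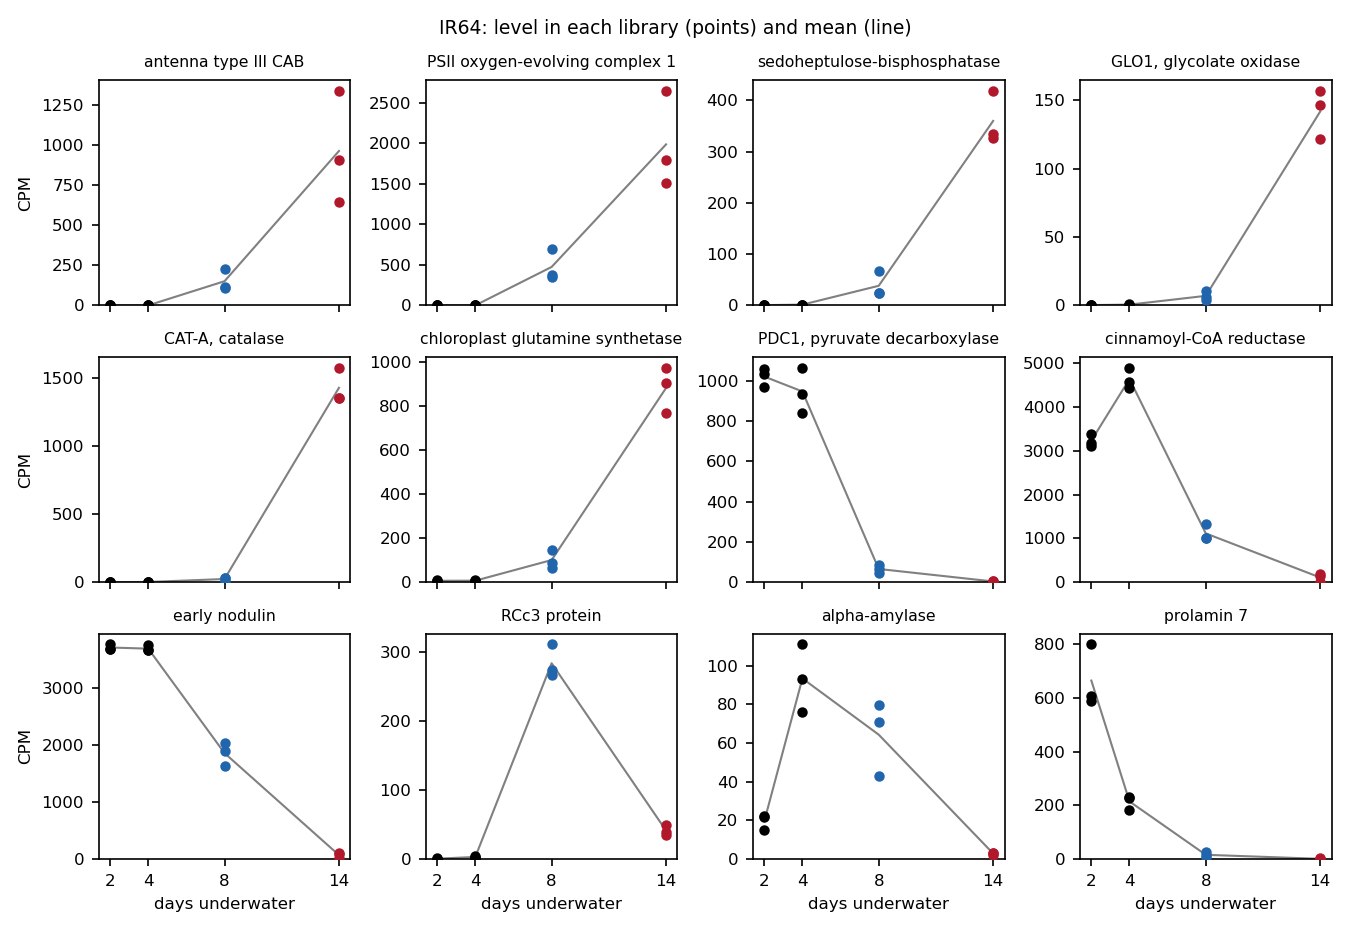
CPM in each IR64 library (points) and mean (line) at 2, 4, 8 and 14 d underwater, in 12 genes. Antenna, photosystem, Calvin cycle and photorespiration genes were near 0 at 2 and 4 d and highest at 14 d, while PDC1, cinnamoyl-CoA reductase, the early nodulin gene and prolamin 7 were highest at 2 or 4 d and the RCc3 gene at 8 d.

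The 2 and 4 d libraries of IR64 show when these genes first appeared. From 4 to 8 d, 7961 of the 26180 genes (30.4%) were called, 5919 higher (22.6%) and 2042 lower (7.8%). From 2 to 4 d, 2639 (10.1%) were called. The 8 to 14 d and the 4 to 8 d comparisons share the 8 d libraries, so an 8 d level that is low by error makes the one larger and the other smaller. The change from 8 to 14 d differed from that of 4 to 8 d in 6595 genes (25.2%), being higher in 1768 (6.75%) and lower in 4827 (18.4%).

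All 5 genes of the antenna list rose from 4 to 8 d (median log2 fold change 8.36), and in all 5 the later step was smaller by this test. Of the 10 photosystem genes, 9 rose from 4 to 8 d, and the later step was smaller in 8. These steps are compared on the log2 scale, where a 4 d level near 0 leaves the earlier fold no measure of size. The antenna gene OS02G0197600 had 0, 0.0769 and 0 CPM at 4 d and 117, 225 and 109 CPM at 8 d. At 14 d it had 1336, 903 and 644 CPM, so its gain in CPM was larger in the later step. The gene OS01G0501800 of photosystem II had a mean of 0.276 ± 0.275 CPM (SD, n = 3) at 4 d, 474 ± 196 at 8 d and 1985 ± 590 at 14 d. Catalase A had 1.61 ± 0.79 CPM at 4 d, 23.7 ± 13.5 at 8 d and 1431 ± 129 at 14 d, and its later step exceeded the earlier one by 2.01 on the log2 scale (edgeR FDR 0.039). The glycolate oxidase gene OS07G0152900 had 16.1 ± 2.9 CPM at 4 d and 10.3 ± 2.6 at 8 d, so that its rise came after 8 d (difference of the steps 3.48, edgeR FDR 5.2e-13). For GLO1 (0.84, edgeR FDR 0.35) and glutamine synthetase (-0.71, edgeR FDR 0.12) the steps did not pass the test of a difference.

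Of 7 genes for sugar transport and sucrose cleavage, 5 rose and 0 fell (median log2 fold change 1.74). Of the 7, 6 are tabulated genes, of which 33.7% rose and 23.7% fell. OS07G0559700, described as similar to monosaccharide transporter 3, had 77.6, 79.4 and 75.6 CPM at 8 d and 490, 425 and 283 CPM at 14 d (2.37 ± 0.25). The neutral invertase gene OS04G0432400 went from 0.231, 0.221 and 0 CPM to 13.6, 12.7 and 10.04 CPM, while the cell wall invertases OS02G0534400 and OS04G0413500, which cleave sucrose outside the cell, had log2 fold changes of -0.93 and -0.77 and were not called. MST4 (OS03G0218400), a hexose transporter outside this list that the study names, had 15.9, 12.3 and 15.1 CPM and then 6.62, 4.16 and 4.75 CPM, and fell by 1.48.

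Of 6 genes matched as fermentation, 4 fell and 0 rose (median log2 fold change -1.95), and 3 fell without replicate 1 of 8 d or without replicate 2 of 14 d. The 6 include no alcohol dehydrogenase of fermentation, and 5 of them are tabulated genes, of which 33.7% rose and 23.7% fell. Of 8 tabulated genes that the study's annotation places under fermentation, 3 rose and 5 fell (median -1.35). PDC1 (OS05G0469600), pyruvate decarboxylase, had 87.3, 44.8 and 65.3 CPM at 8 d and 6.04, 0.267 and 5.003 CPM at 14 d, a log2 fold change of -4.13 ± 0.47 (edgeR FDR 1.9e-09). It had stood at 1020 ± 46 CPM (SD, n = 3) at 2 d and 946 ± 113 at 4 d, so most of its loss in CPM came before 8 d, and its steps on the log2 scale did not pass the test of a difference (-0.28, edgeR FDR 0.80). The gene beside it, OS05G0469800, fell by 2.90, and the lactate dehydrogenases OS02G0105400 and OS06G0104900 by 1.55 and 2.35 at levels under 6 CPM. OS06G0104900 was not called without either of those libraries, at -1.79 and -1.95. One of the 2 members that were not called, OS02G0187800, is a cinnamyl alcohol dehydrogenase of lignin synthesis and not a fermentation enzyme. The alpha-amylase gene OS01G0357400, which breaks down seed starch, had 42.9, 79.5 and 70.7 CPM at 8 d and 3.31, 3.29 and 2.10 CPM at 14 d (-4.48 ± 0.41). The starch synthesis gene OS01G0633100, the large subunit of ADP-glucose pyrophosphorylase, rose from 2.87, 5.38 and 6.47 CPM to 14.3, 17.99 and 19.1 CPM.

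The vacuolar-type proton-pumping pyrophosphatase OS02G0802500, chosen after its values were seen, had 212, 138 and 146 CPM at 8 d and 9.11, 2.56 and 11.9 CPM at 14 d (-4.39 ± 0.29). Its mean was 649 ± 54 CPM (SD, n = 3) at 4 d. Pyrophosphate-dependent pumps spare ATP when oxygen is short.

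Of the 4 cuticle and wax genes in the list, 2 rose and 0 fell. All 4 are tabulated genes, of which 33.7% rose and 23.7% fell. The very-long-chain condensing enzyme CUT1 homologue OS06G0262800, chosen after its values were seen, went from 0.231, 0.706 and 0.409 CPM to 18.9, 14.8 and 27.8 CPM (5.49 ± 0.41). The 3-ketoacyl-CoA synthase gene OS02G0731900, of the enzymes that elongate wax precursors, had 8.78, 19.5 and 14.8 CPM and then 150, 139 and 143 CPM (3.32 ± 0.22). A second gene of that family, OS04G0116800, had -0.69 ± 0.24. The acyl-CoA reductase-like gene OS04G0354600 went from 0.0925, 1.32 and 0.573 CPM to 146, 107 and 246 CPM. The glycerol-3-phosphate acyltransferase 1 homologue OS03G0832800 had no count at 8 d and 7.49, 5.35 and 12.6 CPM at 14 d, which is at least 58.8-fold higher against a floor of 3 counts per library. RCN1 (OS03G0281900), an ABC transporter needed for suberin in the rice root hypodermis, had 3.33, 11.8 and 6.22 CPM and then 30.8, 30.8 and 30.6 CPM (2.11 ± 0.31).

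Of 10 lignin synthesis genes, 5 rose and 3 fell (median log2 fold change 1.402). All 10 are tabulated genes, of which 33.7% rose and 23.7% fell. The cinnamoyl-CoA reductase gene OS02G0811800 had 1328, 1003 and 1012 CPM at 8 d and 133, 7.60 and 182 CPM at 14 d (-3.37 ± 0.55), after 4640 ± 238 CPM (SD, n = 3) at 4 d. A second such gene, OS02G0808800, fell by 3.01, and the cinnamyl alcohol dehydrogenase OS04G0612700 by 2.74. In all 3 the 14 d replicate 2 was the lowest library. Laccases, which polymerise lignin, were among the genes that rose: OS01G0850700 had 30.5, 30.3 and 24.1 CPM and then 106, 80.6 and 125 CPM, and OS03G0273200 rose from 0, 1.15 and 0.246 CPM to 11.3, 11.6 and 13.5 CPM. Its log2 fold change of 4.68 was 6.48 without replicate 2 of 8 d and 4.08 without replicate 1, and that of OS02G0808800 was -4.00 without replicate 3 of 14 d.

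Class III peroxidases, secreted enzymes that cross-link the wall, mostly fell or were not called. Of 23 tested, 10 fell and 2 rose (median log2 fold change -0.71), and 14 of the 23 are tabulated genes. The Peroxidase 1 genes OS03G0368000, OS03G0368300 and OS03G0369000, which lie close together and are alike enough that reads could be shared, had log2 fold changes of -5.05, -4.92 and -4.98. OS03G0368000 had 85.8, 70.3 and 55.7 CPM at 8 d and 3.19, 0.573 and 2.65 CPM at 14 d. OS03G0234900 moved the other way, from 6.29, 14.3 and 7.37 CPM to 92.0, 87.7 and 91.4 CPM (3.28 ± 0.27). Of 10 expansins, which loosen walls in growing cells, 3 fell and 1 rose. Tabulated genes, of which 33.7% rose and 23.7% fell, make up 8 of the 10. EXPA1 (OS04G0228400) had 26.6, 14.7 and 9.09 CPM and then 2.73, 1.796 and 2.18 CPM (-2.91 ± 0.30), having peaked at 99.0 ± 10.6 CPM (SD, n = 3) at 4 d. Expansin-B16 (OS02G0639500) rose from 1.34, 2.47 and 2.29 CPM to 13.8, 12.3 and 12.8 CPM. EXPA6 (OS03G0336400) and EXPB11 (OS02G0658800), which the study names, had 0.49 ± 0.24 and -0.43 ± 0.26 and were not called.

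Heat shock genes were the list with the lowest median among those with at least 4 genes tested. Of 25 tested, 14 fell and 4 rose (median log2 fold change -2.20), and 15 of the 25 are tabulated genes, of which 33.7% rose and 23.7% fell. The small heat shock protein gene OS03G0266300 had 2426, 953 and 1326 CPM at 8 d and 332, 111 and 263 CPM at 14 d (-2.74 ± 0.37). Heat shock protein 26 (OS03G0245800), a plastid chaperone, had 755, 131 and 172 CPM and then 41.7, 4.93 and 40.1 CPM (-3.61 ± 0.68). Replicate 1 was far the highest at 8 d and replicate 2 the lowest at 14 d. Without replicate 1 of 8 d, 9 of the 25 fell (median -1.56) and OS03G0245800 had -2.44, and without replicate 2 of 14 d, 11 fell (median -1.99). The part of these libraries in the size of the fall was not tested otherwise.

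OS03G0266300 had 57.2 ± 7.1 CPM (SD, n = 3) at 4 d, and 15 of the 25 had risen from 4 to 8 d, after 7 that fell and 1 that rose from 2 to 4 d. Not all chaperones fell. The class I small heat shock gene OS01G0135900 had 6.33, 21.6 and 9.29 CPM at 8 d and 86.0, 75.2 and 93.9 CPM at 14 d, and the DnaJ-domain gene OS07G0443500 went from 0, 0 and 0.0409 CPM to 6.25, 12.8 and 8.70 CPM.

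**Figure D4:**
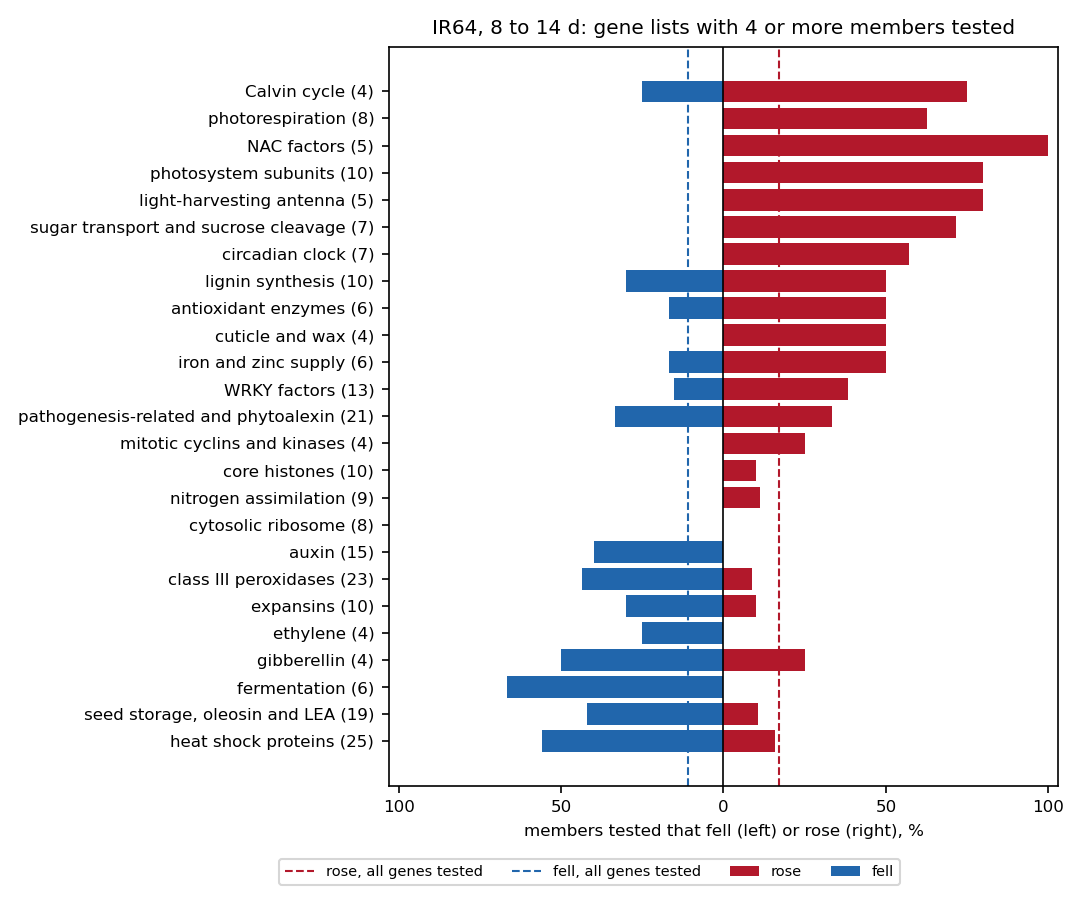
Percent of tested members that rose (right) or fell (left) in each list with 4 or more members tested (number in parentheses), ordered by median log2 fold change, with the share of all genes as dashed lines (17% and 10.9%). Of the 25 heat shock genes 14 fell and of the 10 photosystem genes 8 rose, while none of the 8 cytosolic ribosome genes was called. The list named circadian clock holds mostly transporters that its search pattern matched by letters.

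Markers of other tissue moved with the comparison. Of 15 endosperm and aleurone genes (storage proteins, oleosin, amylase and amylase inhibitors), 11 fell and 1 rose. Their summed level was 312 to 405 CPM at 8 d and 154 to 183 CPM at 14 d, after 1312 to 1657 CPM at 2 d. The amylase inhibitor genes OS03G0661600 and OS04G0526600, matched by letters, are among the 11. Part of the drop in the sum is OS03G0661600, with 56.1, 83.9 and 72.5 CPM at 8 d and 8.73, 2.98 and 8.92 CPM at 14 d. Prolamin 7 (OS05G0328800), a seed storage protein, had 14.3, 6.13 and 27.3 CPM at 8 d and 0.0828, 0.0764 and 2.47 CPM at 14 d. Prolamin genes are near-identical copies, and their split is uncertain. The glutelin gene OS01G0111900, with 210, 215 and 117 CPM and then 147, 132 and 146 CPM, made up most of what was left and was not called. Viviparous-1 (OS01G0911700), the seed maturation regulator, had 35.6, 29.6 and 25.8 CPM at 8 d and 1.61, 0.229 and 2.03 CPM at 14 d (-4.54 ± 0.36). Of 19 seed storage, oleosin and LEA genes, 8 fell and 2 rose (median log2 fold change -2.00), with LEA gene OS01G0314800 among the 2 that rose, from 2.87, 1.15 and 1.51 CPM to 41.1, 41.6 and 22.3 CPM. This list includes a few immunoglobulin-fold genes that its search pattern matched by letters. Tabulated genes, of which 33.7% rose and 23.7% fell, make up 13 of the 19.

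Of 4 RCc3 genes, which mark the rice root, 3 fell and 0 rose. OS02G0662000 had 311, 274 and 266 CPM at 8 d and 50.1, 39.3 and 34.4 CPM at 14 d, and their sum was 621 to 767 CPM and then 125 to 166 CPM, after 10.5 to 11.8 CPM at 4 d. Root markers were thus present in tissue labelled coleoptile, at a higher level at 8 d than at 14 d. The meristem homeobox gene OSH6 (OS01G0302500) had 27.6, 18.8 and 16.9 CPM at 8 d and 4.68, 7.34 and 4.10 CPM at 14 d (-1.97 ± 0.18). The part of tissue makeup in the results above was not tested.

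None of the 8 cytosolic ribosome genes and none of the 3 DNA replication genes passed the edgeR test (medians -0.19 and -0.42), with an unadjusted p under 0.05 in 4 and 1 of them, and DESeq2 called 0 of either. The replication licensing factor CDT1A (OS04G0185100) had 11.8, 13.8 and 15.8 CPM and then 8.20, 10.4 and 9.64 CPM, and RPA70B (OS03G0214100), a single-strand DNA-binding subunit, had 42.6, 46.4 and 40.2 CPM and then 43.0, 52.0 and 33.2 CPM. Of 10 core histone genes, 1 rose, OS09G0570850, from 0, 0 and 0.0819 CPM to 0.372, 0.840 and 0.761 CPM. The one riser of the mitotic list, OS01G0168100, is a KIP1-like domain gene and no cyclin.

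Among transcription factors, all 5 NAC genes rose (median log2 fold change 2.22), of which OS01G0261200 had 104, 100.9 and 110 CPM at 8 d and 254, 250 and 227 CPM at 14 d (1.21 ± 0.11). The other 4 were under 6 CPM on both days, and without replicate 1 of 8 d, or without replicate 2 of 14 d, 4 of the 5 were called. Of 13 WRKY genes, 5 rose and 2 fell (median 0.68). The tabulated genes, of which 33.7% rose and 23.7% fell, supply 7 of the 13. The benzothiadiazole-inducible WRKY gene OS05G0322900 had 2.31, 4.59 and 4.26 CPM at 8 d and 91.3, 100.3 and 92.3 CPM at 14 d (4.66 ± 0.31), while OS01G0185900 fell from 21.8, 24.8 and 17.8 CPM to 8.11, 5.88 and 5.91 CPM. With 18 of its 21 genes from the tabulated set, the list of pathogenesis-related genes split evenly, with 7 that rose and 7 that fell. Those that fell include the ERF-domain factors OS04G0398000 and OS04G0547600, which take their place in the list by name only, and the beta-1,3-glucanase-like gene OS07G0539900 (-3.03 ± 0.33). The chitinase gene OS04G0493400 had no count at 8 d and 1.32, 2.02 and 0.580 CPM at 14 d, at least 9.08-fold higher against 3 counts per library.

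Of 15 auxin genes, 6 fell and 0 rose (median log2 fold change -0.67). The tabulated genes, of which 33.7% rose and 23.7% fell, supply 10 of the 15. Those that fell include the SAUR genes OS08G0118500 (-3.04 ± 0.40, and -2.23 without replicate 1 of 8 d) and OS04G0662400 (-2.22 ± 0.30). OS02G0805100, described as similar to IAA12, also fell, from 16.3, 7.01 and 9.70 CPM to 2.44, 2.25 and 4.42 CPM. OS02G0570400, described only as similar to ent-kaurene synthase 1A, had 9.66, 12.6 and 5.93 CPM at 8 d and 90.1, 85.8 and 112 CPM at 14 d (3.35 ± 0.24). Whether it serves gibberellin synthesis was not tested. The gibberellin-stimulated GAST gene OS03G0760800 fell by 1.68. GIGANTEA (OS01G0182600), a clock gene with a daily rhythm, had 259, 486 and 588 CPM and then 1206, 1369 and 1480 CPM. The hour of harvest is not given in the sources used here. The silicon influx aquaporins OS02G0745100 and OS06G0228200 rose by 2.65 ± 0.28 and 2.07 ± 0.23.

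The SUB1A entry of the count table, an ethylene response factor that restrains growth underwater when its SUB1A-1 allele is present, had 2.08, 0.221 and 0.246 CPM at 8 d (45, 5 and 6 counts) and 15.2, 11.3 and 9.46 CPM at 14 d in IR64, a log2 fold change of 3.85 ± 0.46. It had no count at 2 or 4 d. In IR64(SUB1) the means were 60.2 ± 14.99 CPM (SD, n = 2) at 8 d and 139 ± 33 (SD, n = 3) at 14 d. The entry does not tell the alleles apart. MYBS1 (OS01G0524500), a regulator of sugar-starvation amylase genes, had 15.1, 23.3 and 13.4 CPM and then 17.3, 12.03 and 15.05 CPM, with overlapping days.

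The same days were compared in the other 3 lines. The number called was 5771 (22%) for IR64(AG1), 4746 (18.1%) for IR64(SUB1) and 5497 (21%) for IR64(AG1,SUB1), and these counts do not show by themselves that the lines differ. The change of IR64 differed from that of IR64(AG1) in 27 genes (0.103%), from that of IR64(SUB1) in 94 (0.359%) and from that of IR64(AG1,SUB1) in 112 (0.428%). The 3 comparisons share the 6 IR64 libraries. They also hang on single libraries. Leaving out replicate 1 of 8 d left 2, 22 and 51 genes, and leaving out replicate 2 of 8 d gave 277, 593 and 234. Without replicate 2 of 14 d the counts were 0, 85 and 38, and the remaining libraries gave 16 to 43, 51 to 92 and 79 to 174. Where 0 were called, 2162 of 26145 genes (8.27%) had an unadjusted p under 0.05. On all libraries, DESeq2 called 106, 272 and 214.

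The genes with a higher change in IR64, 0.0535%, 0.21% and 0.0726% of those tested, were mostly lower in IR64 at 8 d than in the other line. This held for 14 of 14 genes against IR64(AG1), 53 of 55 against IR64(SUB1) and 16 of 19 against IR64(AG1,SUB1), with median log2 differences at 8 d of -1.79, -1.27 and -1.71 and at 14 d of -0.01, 0.24 and 0.51. The genes were picked by a larger change in IR64 in these same libraries. A lower 8 d or a higher 14 d level in IR64 was thus partly fixed by the choice. Catalase A had means of 23.7 ± 13.5 CPM in IR64 and 98.4 ± 51.6 in IR64(AG1) at 8 d, and of 1431 ± 129 and 1140.3 ± 105.4 at 14 d (SD, n = 3 each). Its rise was 2.38 larger in IR64 on the log2 scale (edgeR FDR 0.030). The WRKY gene OS05G0322900 had 3.72 ± 1.23 CPM at 8 d in IR64 and 14.7 ± 0.9 in IR64(SUB1) (n = 2), against 94.6 ± 5.0 and 98.0 ± 4.5 at 14 d (difference of the changes 1.93, edgeR FDR 0.021). RCN1 had 7.11 ± 4.29 CPM in IR64 and 22.1 ± 1.4 in IR64(SUB1) at 8 d and 30.7 ± 0.1 and 26.3 ± 5.1 at 14 d, a difference of 1.86 (edgeR FDR 0.046). Thylakoid ascorbate peroxidase rose 1.35 more than in IR64(AG1) and 1.30 more than in IR64(SUB1). Against IR64(AG1), neither this gene nor catalase A was called without replicate 2 of IR64 at 14 d, where 0 genes were.

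Against IR64(AG1,SUB1) most differences lay in genes that fell. All 93 genes (0.355%) with a lower change in IR64 had fallen in IR64, and their median log2 difference between the lines was 0.10 at 8 d and -1.99 at 14 d. They too were picked from the same libraries, so a higher 8 d or lower 14 d level in IR64 was partly fixed by the choice. The Peroxidase 1 gene OS03G0368000 had 70.6 ± 15.1 CPM in IR64 and 47.8 ± 12.2 in IR64(AG1,SUB1) at 8 d, and 2.14 ± 1.38 and 5.75 ± 1.49 at 14 d (SD, n = 3 each, difference of the changes -1.99, edgeR FDR 0.0059). The proton-pumping pyrophosphatase OS02G0802500 had 165 ± 41 and 170 ± 26 CPM at 8 d and 7.86 ± 4.81 and 29.0 ± 5.5 at 14 d (-1.84, edgeR FDR 0.0097). Viviparous-1 had 30.3 ± 4.9 and 31.0 ± 8.7 CPM at 8 d and 1.29 ± 0.94 and 5.20 ± 2.54 at 14 d (-1.99, edgeR FDR 0.046). Replicate 2 of IR64 at 14 d was the lowest library in each of these 3 genes, and without it the number of genes called in this comparison fell to 38 of both directions.

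**Figure D5:**
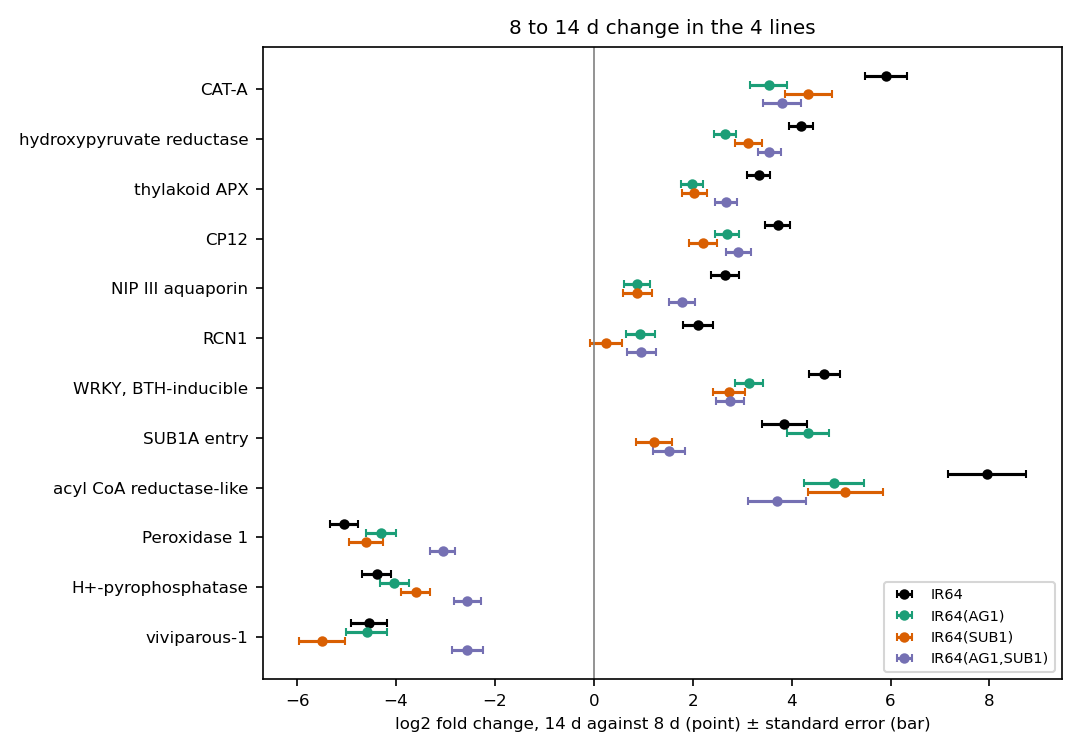
Log2 fold change of 14 d against 8 d (points) with its standard error (bars) in the 4 lines, for 12 genes. Each differed between IR64 and at least 1 other line in the fit of all libraries. Catalase A changed by 5.91 in IR64 and OS03G0368000 (Peroxidase 1) by -5.05, both further from 0 than in the other 3 lines.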

How the data were processed

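RNA-seq was run on 45 libraries of 4 rice lines at 2, 4, 8 and 14 d underwater. The authors aligned strand-specific paired-end reads with TopHat 2.0.14 and Bowtie2 2.2.5 to IRGSP-1.0 plus SUB1A-1, and deposited counts per gene over exons.

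The deposited counts were tested in edgeR 4.0.16 (R 4.3.3) by a quasi-likelihood model of all 45 libraries in 16 groups, after an expression filter (26180 of 35677 genes kept) and TMM scaling. The Benjamini-Hochberg FDR limit was 0.05, with log2 changes beyond 1 or -1. Log2 CPM used a prior count of 2. Standard errors of log2 fold changes are the absolute change over the square root of the quasi-likelihood F. They rest on the spread in all 45 libraries. Libraries held at least 12256409 counts. The floor of 3 counts was at most 0.149 CPM in the 6 libraries, and counting intervals cover counting error only. Replicates are libraries of triplicate experiments, and p-values measure the spread between them. On simulated counts of 25152 genes, the comparison of 14 d with 8 d recovered 200 of 200 genes changed 4-fold, with 4 false calls. The simulation changed no genes of low level, used the trended spread and held no libraries that stood apart. It thus checks the fit and does not give the error rate in the real counts.

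Genes were named by rule: those the study names, up to 4 called members per list, and the 10 largest rises and falls among described genes with at least 10 CPM in the higher group and no overlap. OS05G0190500, OS01G0501800, CP12, OS03G0832800, viviparous-1 and most genes in the closing section were chosen after their values were seen. Members and lists were chosen with earlier results of these data known. Alternatives were DESeq2 1.42.0, no filter, library totals, the study's steps (5 counts added), the 6 libraries alone, a replicate block, FDR alone and leaving out each of the 6 libraries. Added after seeing the data were list counts without replicate 1 or 2 of 8 d or replicate 2 of 14 d.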

Additional observations from a re-analysis of the deposited data

Results flagged for a closer look

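These genes had a change from 8 to 14 d in IR64 that differed from the change in another line in the edgeR quasi-likelihood test of the difference itself (FDR under 0.05 and a difference above 1 or below -1 on the log2 scale). Most were chosen after their values were seen, the 3 comparisons share the IR64 libraries, and the counts behind them vary with single libraries as given above. All values below are differences of log2 fold changes, IR64 minus the other line.

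In the comparison with IR64(AG1), 0 genes were called without replicate 2 of IR64 at 14 d, so no difference from that line kept its call. On all libraries, the change was higher in IR64 by 2.38 for catalase A (OS02G0115700), by 1.53 for peroxisomal hydroxypyruvate reductase (OS02G0101500) and by 1.35 for thylakoid ascorbate peroxidase (OS02G0553200). The silicon aquaporin gene OS02G0745100 was higher by 1.78, the FAS1-domain gene OS02G0308800, of a family of wall adhesion proteins, by 2.14, and the glycine-rich wall protein gene OS06G0317100 by 3.38. For OS01G0205300, described by a rho termination factor domain, it was 2.98, for OS05G0568800, with a DUF1645 domain, 2.86, for the conserved gene OS01G0642200 1.30 and for the beta-1,3-glucanase OS01G0941200 2.48. The beta-amyrin synthase-like gene OS02G0140400, a triterpene enzyme, was lower by -2.71, having gone from 0.819 ± 0.486 to 12.9 ± 4.7 CPM (SD, n = 3) in IR64(AG1) and from 1.37 ± 0.22 to 3.27 ± 1.35 CPM in IR64.

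Against IR64(SUB1), the wall-related genes were again higher in IR64, by 2.28 for OS02G0308800, by 3.14 for OS06G0317100 and by 2.26 for the glycine-rich gene OS06G0316800. The value was 1.52 for CP12 (OS01G0303000), 1.30 for thylakoid ascorbate peroxidase, 1.77 for OS02G0745100, 1.86 for RCN1 (OS03G0281900), 1.93 for the WRKY gene OS05G0322900, 2.76 for OS01G0205300 and 1.23 for OS01G0642200. The SUB1A entry had 2.64, with both days far lower in IR64 than in IR64(SUB1). Lower in IR64 were the ZnI gene OS01G0256500 (-1.29) and fructokinase 1 (OS01G0894300, -1.27), which phosphorylates fructose. Fructokinase went from 135 ± 13 to 76.9 ± 2.1 CPM in IR64 (SD, n = 3) and from 51.2 ± 8.5 (n = 2) to 70.4 ± 4.6 CPM in IR64(SUB1).

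Against IR64(AG1,SUB1), the value was 2.10 for catalase A, 4.23 for the acyl-CoA reductase-like gene OS04G0354600, 2.05 for OS02G0308800, 1.85 for OS06G0316800, 1.91 for OS05G0322900 and 2.77 for OS05G0568800. The NBS-LRR resistance gene OS02G0118800 had 2.43, with 2.94 ± 1.64 and then 0.664 ± 0.137 CPM in IR64(AG1,SUB1). For the acyltransferase gene OS03G0832800 the fitted value was 7.87 and is no measure of size, since IR64 had no count at 8 d. Genes that fell further in IR64 were viviparous-1 (OS01G0911700, -1.99), the proton-pumping pyrophosphatase OS02G0802500 (-1.84), the IAA12-like gene OS02G0805100 (-2.21), the Peroxidase 1 genes OS03G0368000 (-1.99) and OS03G0368300 (-1.66), and ZnI (-1.20). ZnI went from 4953 ± 1155 to 855 ± 233 CPM in IR64 (SD, n = 3).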

How the results depend on the processing

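The count of 7324 genes called from 8 to 14 d was 6658 to 7590 under DESeq2, no filter, library totals, the study's steps, the 6 libraries alone and the replicate block. Without the fold limit it was 13359, with 6988 higher and 6371 lower. Leaving out each library gave 6749 to 7520 genes, 3997 to 4608 that rose and 2591 to 2912 that fell, and 86.1% to 93.9% of the 7324 were called again. The difference from the earlier step was called in 6789 genes with DESeq2 and 6582 with the block.

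The differences between lines were the least stable. For IR64(AG1), for IR64(SUB1) and for the double line, DESeq2 called 106, 272 and 214 genes, against 27, 94 and 112, and without a filter the first was 42. Leaving out each IR64 library gave 0 to 277, 22 to 593 and 38 to 234. The cause was not tested. Without replicate 2 of 8 d, list counts chosen after seeing the data moved by over 1.5 times for chlorophyll synthesis (2 rose, from 1), sugar transport (1 fell, from 0), phosphate supply and ethylene (0 fell, from 1). The position of replicate 2 of 14 d was 1.11 on the 500 most variable genes.

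Replicate numbers are shared by the days. Same-numbered libraries had correlations of their deviations of 0.20, 0.07 and 0.10 over 11780 genes, against -0.28 to 0.09 for libraries of different numbers. The main fit did not take the numbers as pairs, and whether same-numbered libraries belong together was not tested. Replicates 2 of both days correlated less with each other than with a library of another number. With the replicate block, 7282 genes were called from 8 to 14 d, 4453 that rose and 2829 that fell, and 36, 120 and 124 in the differences between lines.

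Of 127 called genes that the naming rule covers or that were added, 116 kept their call in each alternative that could be fitted and 11 did not, among them OS01G0104500, OS03G0624600, the magnesium chelatase gene OS03G0323200, NAS1, NAS2, OsEXPA2 and lactate dehydrogenase B. MYBS1 (OS01G0524500) went from -0.22 to 0.054 without replicate 2 of 8 d, in a range of -0.38 to 0.054 when each library was left out. RPA70B (OS03G0214100) went from -0.01 to 0.078 with DESeq2, and leaving out each library gave -0.18 to 0.14. Neither gene was called. Calls at a few counts lean on single libraries: the steroleosin gene OS03G0842900, with 11 counts at 8 d and 0 at 14 d, was called, and not without replicate 1 of 8 d.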

Other observations

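Genes of metal supply moved both ways. Nicotianamine synthase 1 and 2 (OS03G0307300 and OS03G0307200), which make the chelator that carries iron in the phloem, went from 0.0925, 0.838 and 0.286 CPM to 3.44, 2.83 and 2.39 CPM and from 0.185, 0.618 and 0.205 CPM to 2.90, 3.25 and 1.12 CPM, with log2 fold changes of 2.81 ± 0.96 and 2.83 ± 0.95. They are alike enough that reads could be shared, and neither call held under every alternative. The zinc transporter OS05G0198400 had 42.2, 28.0 and 27.7 CPM at 8 d and 11.1, 7.49 and 13.1 CPM at 14 d.

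The ZnI gene OS01G0256500 was among the most abundant genes that fell, with 6252, 4567 and 4041 CPM at 8 d and 1065, 604 and 897 CPM at 14 d (log2 fold change -2.53 ± 0.19), after 9959 CPM as the 4 d mean. Xyloglucan-remodelling genes went both ways: OS03G0108300 had 4.21, 12.5 and 9.004 CPM and then 62.9, 43.9 and 53.9 CPM, and OS10G0545500 had 22.9, 35.5 and 25.8 CPM and then 6.13, 6.34 and 3.59 CPM. These values come with the edgeR quasi-likelihood fit used above, and no explanation of them was tested.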
